A study of Mus musculus with 8 samples.

Results

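The histone cluster genes were the genes whose mouse symbols begin Hist1h to Hist4h, with 10 or more counts in at least 2 of the 8 libraries. This rule kept 51 of 68 such symbols, out of 49315 genes counted. It used the measured counts but not the ages, except that Hist1h4m and Hist1h4n were singled out for their steps between ages. The 51 members held 5 linker histone H1 genes, 11 H2A, 12 H2B, 10 H3 and 13 H4 genes. All were annotated as protein coding except the pseudogene Hist3h2bb-ps.

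RNA had been sequenced from gastrocnemius, the main calf muscle, of C57BL/6 mice aged 3, 12, 24 and 30 months, with 2 libraries at each age and no treatment named in the labels. The labels give neither the sex nor the substrain of the mice. Nor do they state whether the replicate libraries were made from different mice, so the p-values measure only the spread between these libraries, which may be technical. Total counts ranged from 42404254 to 59245029 per library, and 3 counts, used as the floor, corresponded to between 0.0506 and 0.0707 CPM (counts per 1000000, scaled by library). Genes of skeletal muscle fibres (Ckm, Acta1, Ttn and 5 others) summed to between 227665 and 384343 CPM, the lowest sum being that of 30-month replicate 2. Genes of kidney, a tissue that was not sampled, summed to between 0.195 and 4.81 CPM in the 6 older libraries, against 46.9 and 14.5 CPM in the 3-month libraries. The sum was above 1 CPM in replicate 1 of 12 and 24 months and replicate 2 of 30 months, and below it in the other libraries older than 3 months.

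Replication-dependent histones are the proteins that wrap newly copied DNA. An octamer of H2A, H2B, H3 and H4 forms the nucleosome core and H1 binds the linker DNA at its entry and exit. Their genes lie in clusters, mostly have no introns, and are transcribed mainly in S phase. Their mRNAs usually end not in a poly(A) tail but just after a short stem-loop that is bound by the stem-loop binding protein, although some are also made with a tail in cells that have stopped dividing. Muscle fibres are post-mitotic, and the dividing cells of adult muscle are mostly those between the fibres. The sources used here do not state whether the RNA was selected for poly(A) tails or depleted of ribosomal RNA.

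Of the 51 members, 42 lay on chromosome 13 of GRCm38, between positions 21715763 and 23764358, with 5 on chromosome 3, 3 on chromosome 11 and 1 on chromosome 6. A single exon made up 49 of them. The stem-loop was found as a 16-base sequence in the annotated GENCODE M21 transcripts of 35 members, and its form went with histone class. The transcript ends below show the form carried by linker and core histones other than H4, and the H4 forms, with the stem-loop in capitals and 5 bases on either side, 5′ to 3′.
Hist1h1c: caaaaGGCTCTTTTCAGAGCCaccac
Hist2h2ac: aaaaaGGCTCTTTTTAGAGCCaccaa
Hist1h3e: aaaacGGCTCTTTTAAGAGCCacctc
Hist1h4c: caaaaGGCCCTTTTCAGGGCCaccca
Hist1h4i: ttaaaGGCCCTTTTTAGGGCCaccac
Hist1h4b: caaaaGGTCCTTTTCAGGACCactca
The whole stem-loop sequence of Hist1h1c was found in 18 members, that of Hist1h3e in 5 and that of Hist2h2ac in 1, and none of these was an H4 gene. These sequences have the same stem and differ only in the last base of the loop. The Hist1h4c form was found in 7 members, the Hist1h4i form in 2 and the Hist1h4b form in 2, and all of these were H4 genes. In 19 of the 35 members the annotated transcript ran on for 100 or more bases past the stem-loop, as in Hist1h1c (840 bases), Hist1h4c (454 bases) and Hist1h3e (369 bases). In the other 16 it ended sooner.

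RefSeq gave the promoter, from 250 bases before to 50 bases after the start of transcription, of 45 members on GRCm38.p6. TATAAA, the core of a TATA box, was found on either strand in 29 of the 45 (64.4%), against 13.6% of the 32851 promoters in the table. CCAAT was found on either strand in 36 of 45 (80.0%), against 37.4% of all promoters. CCAAT was present in all 33 matched promoters of H1, H2A, H2B and H3 genes and in 3 of the 12 of H4 genes (25.0%). The motifs can share an end base and were counted separately, and a match is a description of the sequence and not evidence of a bound factor. The 250 bases upstream of Hist2h2ac and Hist1h4i are shown as examples of a promoter with CCAAT and an H4 promoter without it. Capitals mark TATAAA and CCAAT on either strand, so that CCAAT on the other strand reads ATTGG. Both are minus-strand genes, at chr3:96220881-96221130 and chr13:22041363-22041612 (GRCm38.p6).
Hist2h2ac: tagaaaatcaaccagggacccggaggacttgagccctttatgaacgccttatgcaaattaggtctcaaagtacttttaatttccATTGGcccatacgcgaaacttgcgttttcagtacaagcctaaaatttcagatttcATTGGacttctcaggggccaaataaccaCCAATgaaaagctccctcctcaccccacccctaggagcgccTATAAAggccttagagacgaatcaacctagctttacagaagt
Hist1h4i: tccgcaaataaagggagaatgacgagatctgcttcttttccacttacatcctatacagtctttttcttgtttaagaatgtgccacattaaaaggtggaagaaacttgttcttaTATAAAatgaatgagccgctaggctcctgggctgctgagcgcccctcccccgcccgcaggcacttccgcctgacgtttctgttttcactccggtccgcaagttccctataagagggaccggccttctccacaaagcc

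Many histone genes are near copies of each other, and this limits how far a count belongs to 1 gene. Of all 50-base words in a member's annotated transcript, the median share found in no other M21 transcript was 50.7%. The share exceeded 90% in 7 members and was below 20% in 8. It was 91.5% for Hist1h1c and 80.4% for Hist1h4c, but 26.6% for Hist1h3e, 14.4% for Hist1h4n and 10.2% for Hist1h4m. These shares cover the whole M21 transcript, which in some members was longer than the stretch in which reads were counted. For Hist1h4c it had 820 bases, against 395 counted, and for Hist1h4d 1138 against 393. The share within the counted stretch was not taken and may be lower in such members. The 17 symbols that were not members had a median share of 6.9%, and 12 of them had at most 1 count in every library. Of these 17, Hist2h2aa1, Hist2h2aa2, Hist2h2bb, Hist2h3b and Hist2h3c1 had no 50-base word of their own and 0 counts in all 8 libraries. The sources used here do not state how reads that match several genes were treated, and counts of near-identical members are uncertain. On the same strand as another annotated gene lay 2 members, Hist3h2a (with Trim17) and Hist1h2be (with Gm11398), and 12 overlapped a gene on the opposite strand, and whether counting used strand is not stated either.

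At the threshold itself, Hist3h2ba had 3 and 12 counts at 3 months, 6 and 3 at 12, 9 and 4 at 24, and 4 and 19 at 30 months, and so entered with 10 or more counts in exactly 2 libraries. Just outside were Hist1h2ah, with 3 and 1, 8 and 0, 4 and 5, and 4 and 17 counts at the same ages, and Hist1h2an, with 8 and 5, 8 and 4, 4 and 6, and 3 and 14. All 3 had their highest count in 30-month replicate 2. At least 10 counts in every library were reached by 38 of the 51 members.

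The members spanned a 614-fold range of level per length, given here as CPM per kilobase of counted transcript and averaged over the 8 libraries. The highest was Hist1h4h, an H4 gene, at 144.9 CPM per kilobase (range 91.7 to 183.5), followed by the H4 genes Hist1h4c at 124 and Hist1h4d at 111 and the linker histone gene Hist1h1c at 105. The H2B gene Hist1h2bc at 62.7 and the linker gene Hist1h1e at 47.7 came next. The library ranges of Hist1h4c (86.6 to 151), Hist1h4d (75.6 to 129) and Hist1h1c (88.3 to 121) overlapped one another and that of Hist1h4h. The order of these 4 was not the same in every library, although Hist1h4h lay above Hist1h4d in all 8. These 6 highest members together held 75.6% of the summed CPM of all members. Hist1h4i followed at 25.5 and the H3 gene Hist1h3e at 14.4 CPM per kilobase.

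**Figure D1:**
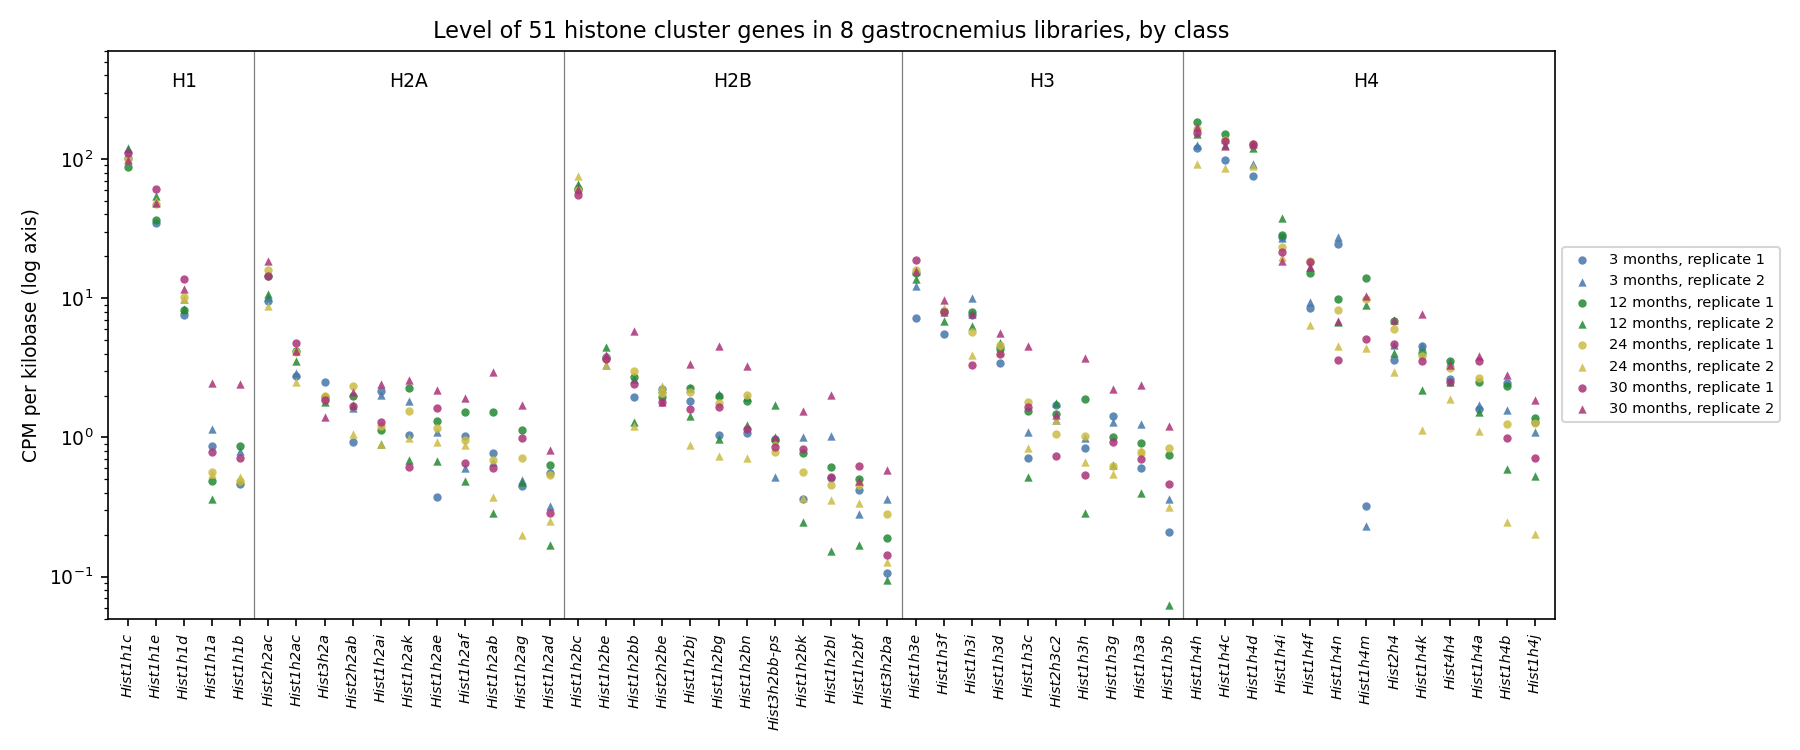
Level of each member in CPM per kilobase on a log axis, members grouped by class, with 1 point for each library, coloured by age and shaped by replicate. Hist1h4h, Hist1h4c, Hist1h4d and Hist1h1c have means between 105 and 144.9 CPM per kilobase, while 27 members have means below 2.

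In each class a single gene held a large share of the counts. Hist1h1c held 78.7% of the counts of H1 genes, Hist1h2bc 63.3% of those of H2B genes, Hist1h3e 43.2% of those of H3 genes, Hist2h2ac 40.7% of those of H2A genes and Hist1h4h 32.2% of those of H4 genes. The lower end was crowded. A mean below 2 CPM per kilobase, a bound chosen after the values were seen, was found in 27 members, which held 3.43% of the summed CPM. They were 9 of the 11 H2A genes, 8 of the 12 H2B genes, 6 of the 10 H3 genes and 2 of the 5 H1 genes, but only 2 of the 13 H4 genes. Members whose annotated transcript ran 100 or more bases past the stem-loop had a median of 4.45 CPM per kilobase (19 members), against 1.56 for those with a shorter end (16 members). The median was 1.48 for the 16 members with no stem-loop in the annotated transcript. These ends are those of M21, and the levels rest on the counted stretch, which did not always hold the whole end. Hist1h4c had 454 bases after the stem-loop in M21 but only 395 counted bases in all.

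Hist1h4m and Hist1h4n both encode histone H4. They were chosen for their opposite steps, so their values are a description and carry no test. Hist1h4m lies at chr13:21811746-21812147 on the plus strand and Hist1h4n at chr13:21831767-21832196 on the minus strand (GRCm38). Over the 402 bases of the Hist1h4m transcript, 401 were identical in Hist1h4n, whose annotated transcript was 28 bases longer. The difference was G36A, counted from 1 at the 5′ end of the transcript, with the base of Hist1h4m given before that of Hist1h4n. It lay in the 5′ untranslated region, just before the start codon. The stretch from base 22 to base 50 is shown because it holds this base, in capitals.
Hist1h4m: acagttttgtcttcGtcatgtctggtcgt
Hist1h4n: acagttttgtcttcAtcatgtctggtcgt
The 312 coding bases had 0 differences, and so did the 249 upstream bases that could be compared between the RefSeq promoters. Of 353 windows of 50 bases along Hist1h4m, 36 covered the differing base. Among the 78 pairs of the 13 H4 members, coding identity ranged from 85.3% to 100% with a median of 93.9%, and Hist1h4m and Hist1h4n formed the 1 identical pair.

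At 3 months Hist1h4m had 6 and 5 counts, followed by 290 and 184 at 12, 207 and 91 at 24, and 93 and 221 at 30 months. Hist1h4n had 486 and 636 counts at 3 months, followed by 217 and 150 at 12, 186 and 100 at 24, and 71 and 156 at 30 months. The 3-month libraries were thus lowest of all for Hist1h4m and highest of all for Hist1h4n, with no overlap with any older library. Scaled to CPM, Hist1h4m ran from 1.77 to 5.65 in the 6 older libraries, against 0.130 and 0.0927 at 3 months, and Hist1h4n ran from 1.56 to 4.23 in the older libraries, against 10.5 and 11.8 at 3 months.

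Of the counts given to the pair, Hist1h4m took 57.2% and 55.09% at 12, 52.67% and 47.64% at 24 and 56.71% and 58.62% at 30 months, against 1.22% and 0.78% at 3 months. The 95% Wilson intervals lay between 40.68% and 64.05% in the older libraries, against 0.56% to 2.63% and 0.33% to 1.81% at 3 months; they cover counting error only. The share made a single step after 3 months, and the intervals of the 6 older libraries all overlapped. The summed level of the pair was 10.6 and 11.9 CPM at 3 months, 9.88 and 6.51 at 12, 7.53 and 3.72 at 24, and 3.60 and 7.09 at 30 months. Fitted log2 fold changes of Hist1h4m were 5.36 at 12, 4.67 at 24 and 4.79 at 30 months over 3 months, and those of Hist1h4n were -1.64, -2.01 and -2.30.

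**Figure D2:**
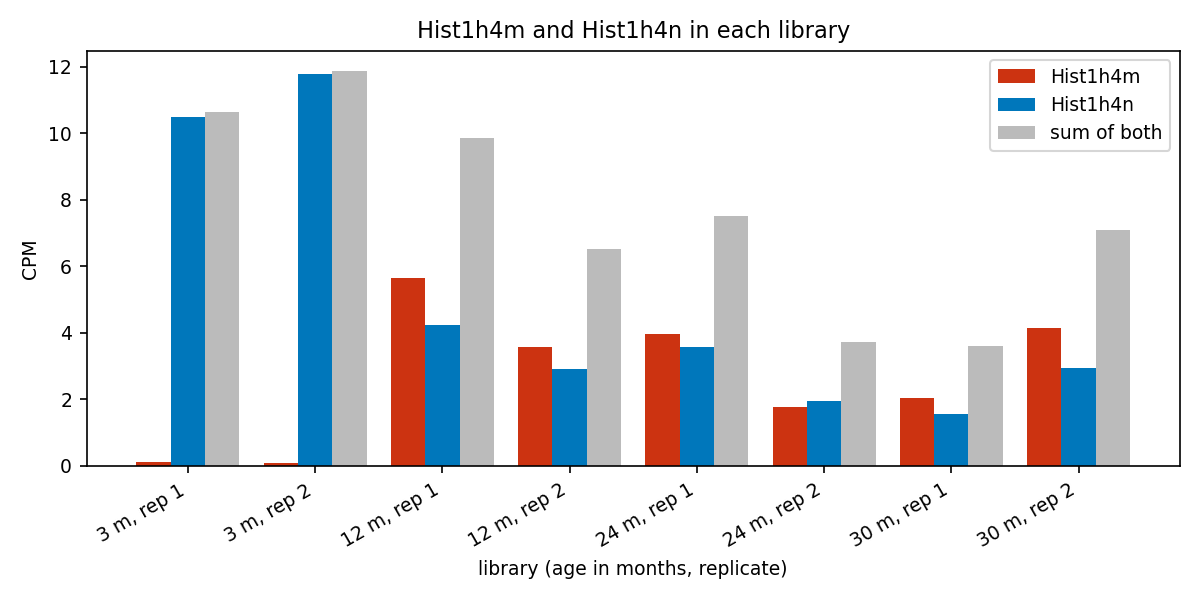
Bars give the level of Hist1h4m, of Hist1h4n and of their sum in CPM, for each library by age. Hist1h4m lies between 1.77 and 5.65 CPM in the 6 older libraries, against 0.130 and 0.0927 in the 3-month libraries, and Hist1h4n between 1.56 and 4.23 CPM, against 10.5 and 11.8.

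Another pair that is no member made a step between the same libraries. The annotated gene Gm28438 had between 0.351 and 0.546 CPM in the older libraries, against 22.4 and 19.6 CPM in the 3-month libraries, while mt-Nd3, a mitochondrially encoded subunit of complex I, had 11.5 to 16.4 CPM in the older libraries, against 0.605 and 0.408 CPM in the 3-month libraries. The summed kidney genes were likewise highest in the 3-month libraries. The part of either, or of how reads were assigned between these near-identical histone genes, was not tested. The other 11 H4 members had fitted log2 fold changes between -0.44 and 1.16 at 30 against 3 months.

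Summed by class, the ratio of 30 over 3 months exceeded the SD between libraries of an age in H2A and H3 genes but not in H1, H2B or H4 genes. The H4 sum here held Hist1h4m and Hist1h4n. Which classes exceeded the SD changed when the highest gene of the class was left out. In bulk tissue, fewer cells of a type and less RNA per cell cannot be told apart. H1 genes summed to 191 and 234 CPM at 3 months, 172 and 232 at 12, 200 and 203 at 24, and 230 and 203 at 30 months. H2B genes summed to 71.0 and 71.9, 71.7 and 77.7, 70.8 and 78.5, and 65.5 and 76.4 CPM at the same ages. For both classes the libraries of 30 and 3 months overlapped, with log2 ratios of 30 over 3 months of 0.03 for H1 and -0.01 for H2B, against within-age SDs of 0.20 and 0.10.

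H4 genes summed to 177 and 207 CPM at 3 months, 258 and 225 at 12, 237 and 145 at 24, and 221 and 234 at 30 months. The sum was lowest of all in 24-month replicate 2. It held Hist1h4m and Hist1h4n, which together had 10.6 and 11.9 CPM at 3 months and 3.60 and 7.09 at 30 months. No H4 ratio without this pair was taken, and it may differ from the one given here. H2A genes summed to 14.7 and 14.6, 18.7 and 13.4, 18.5 and 12.2, and 17.2 and 22.01 CPM, and H3 genes to 19.3 and 27.6, 29.7 and 25.3, 28.7 and 27.4, and 29.0 and 35.9 CPM, in the same order of ages. In these 3 classes both 30-month libraries lay above both 3-month libraries. Their log2 ratios of 30 over 3 months were 0.24 for H4, 0.42 for H2A and 0.47 for H3, against within-age SDs of 0.27, 0.30 and 0.23. These ratios turned on single genes and libraries. Without the highest member of the class, the ratio was 0.43 for H1, 0.20 for H2A, 0.14 for H2B, 0.24 for H3 and 0.17 for H4. Without 30-month replicate 2, it was 0.23 for H2A and 0.31 for H3, and without 3-month replicate 1 it was 0.24 for H3 and 0.13 for H4. No test was made on the sums, since the members were chosen with their values known.

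Gene by gene, 0 of the 49 members other than Hist1h4m and Hist1h4n passed an adjusted p of 0.05 at 30 against 3 months (edgeR quasi-likelihood test, Benjamini-Hochberg over 19571 genes), where 0.148% of all genes did. The lowest adjusted p of a member was 0.309, for Hist1h3e. An unadjusted p under 0.05 was reached by 12 members, 11 of them higher at 30 months, and DESeq2 also called 0, with 11 at an unadjusted p under 0.05. The fitted log2 fold change was positive for 39 of the 49, with a median of 0.55, against 0.01 over all genes tested. Both 30-month libraries lay above both 3-month libraries in 15 of the 49 members, against 21.1% of all genes, and below both in 4 of the 49, against 20.2% of all genes. Class medians were 0.55 for H1, 0.65 for H2A, 0.58 for H2B, 0.56 for H3 and 0.30 for H4.

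These positive values leaned on 30-month replicate 2. Without that library 25 of 49 members had a positive log2 fold change at 30 against 3 months, with a median of 0.00, and 6 had an unadjusted p under 0.05. Without 30-month replicate 1 the numbers were 42 members, a median of 0.71 and 16 members. Leaving out a 3-month library gave 38 or 39 positive members, with medians of 0.32 without replicate 1 and 0.67 without replicate 2.

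At the other ages the members were divided in sign. At 24 against 3 months edgeR called 0 of 49, as against 0.102% of all genes, with 4 members at an unadjusted p under 0.05 and 0 called by DESeq2 (2 at an unadjusted p under 0.05). The log2 fold change was positive in 20, with a median of -0.12. The median was positive without 24-month replicate 2 (0.16, 32 positive) and without 3-month replicate 2 (0.11, 28 positive), and it was -0.46 without 24-month replicate 1 (12 positive). Both 24-month libraries lay above both 3-month libraries in 2 members (20% of all genes) and below both in 9 (19.4% of all genes). At 12 against 3 months edgeR called 0 of 49, as against 0.0409% of all genes, with 4 at an unadjusted p under 0.05 and 0 called by DESeq2 (4 at an unadjusted p under 0.05). Here 28 members were positive, with a median of 0.10, 8 lay above without overlap (19.3% of all genes) and 5 below (19.2% of all genes). This median also changed sign, to -0.09 without 3-month replicate 1 (21 positive) and -0.31 without 12-month replicate 1 (19 positive), and was 0.33 without 3-month replicate 2 and 0.24 without 12-month replicate 2.

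At 30 against 12 months edgeR called 0 of 49, as against 0.00511% of all genes, with 5 at an unadjusted p under 0.05 and 0 called by DESeq2 (6 at an unadjusted p under 0.05). The log2 fold change was positive in 38 members, with a median of 0.41, 12 lay above without overlap (16.1% of all genes) and 4 below (15.7% of all genes). Without 30-month replicate 2 the median was 0.06 (26 positive), and without 12-month replicate 2 it was 0.17 (32 positive). It was 0.85 without 12-month replicate 1 and 0.79 without 30-month replicate 1. Tested across the 4 ages at once, edgeR called 0 of 49, as against 0.0613% of all genes, with 6 at an unadjusted p under 0.05, and DESeq2 called 0 with 9. The comparisons against 3 months share those 2 libraries, so their values are not independent of each other.

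**Figure D3:**
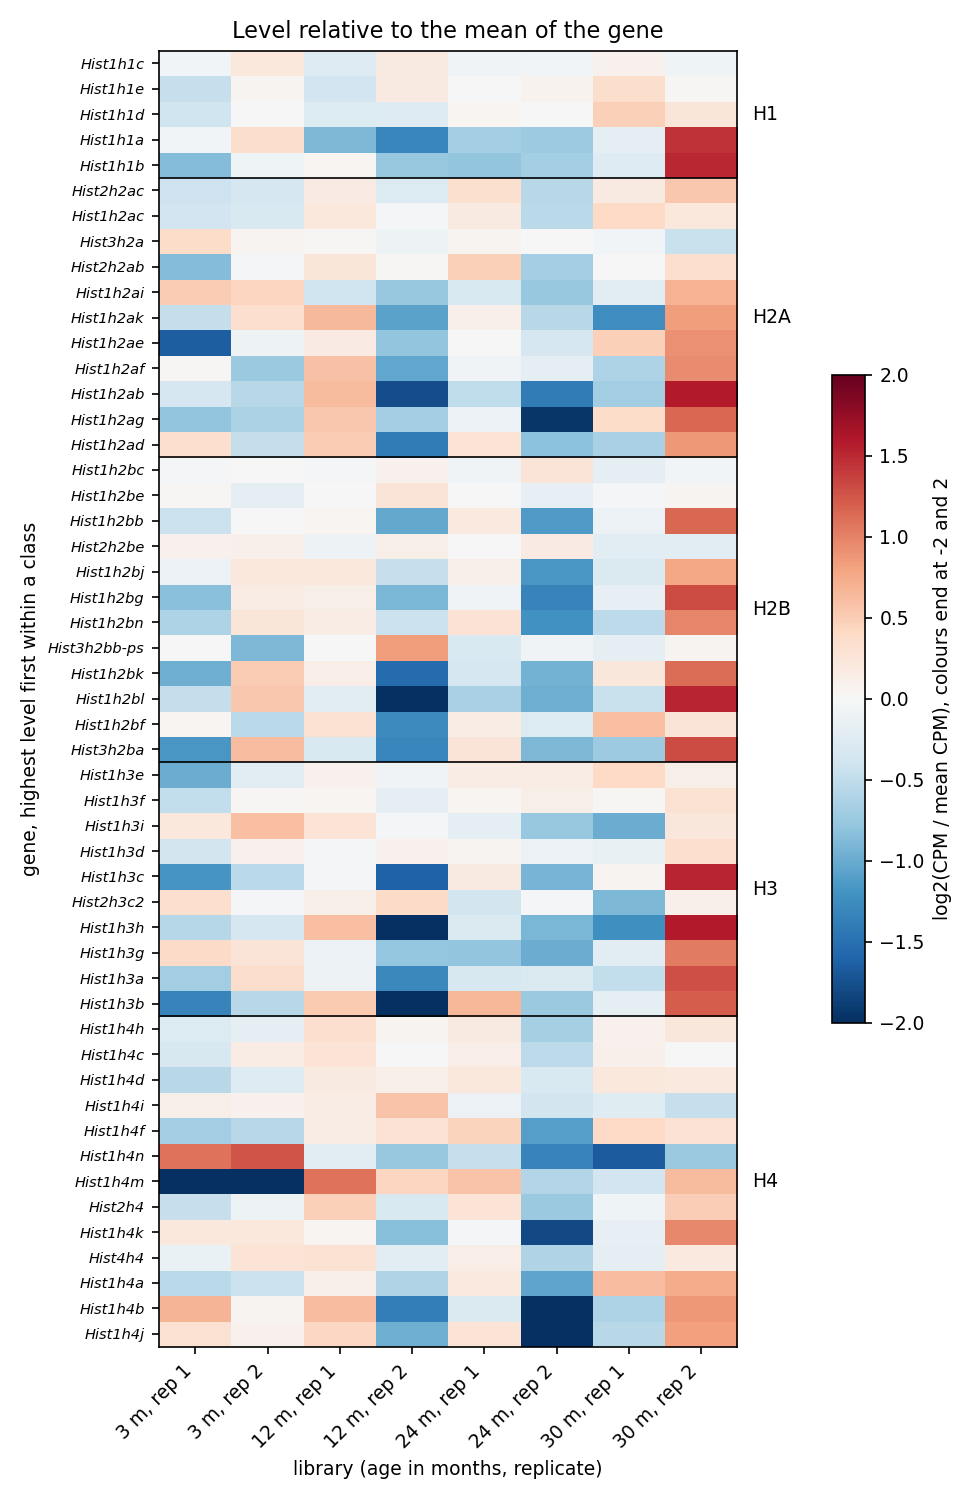
Heat map of log2 CPM over the member's mean CPM, with 1 row for each of the 51 members by class and 1 column for each library by age, colours ending at -2 and 2. The column of 30-month replicate 2 holds the highest value of 29 members, and that of 24-month replicate 2 the lowest value of 18. Of all tested genes 16.5% were highest in 30-month replicate 2, and the share lowest in 24-month replicate 2 was not counted.

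Among linker histones, Hist1h1c had 158 and 189 CPM at 3 months, 138 and 185 at 12, 156 and 157 at 24, and 173 and 154 at 30 months. The ages overlapped throughout, and the log2 fold change at 30 against 3 months was -0.08 (SE 0.19, adjusted p = 0.948, edgeR). Its coefficient of variation over the 8 libraries was 10.5%. Hist1h1e had 26.0 and 37.0 CPM at 3 months, 27.2 and 40.5 at 12, 35.3 and 37.4 at 24, and 45.6 and 36.3 at 30 months, a log2 difference of 0.38 at 30 against 3 months (SE 0.23, adjusted p = 0.719, edgeR). It was 0.15 without 3-month replicate 1, 0.66 without 3-month replicate 2 and 0.20 without 30-month replicate 1.

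Hist1h1d, another linker histone gene, had 5.62 and 7.40 CPM at 3 months, 6.12 and 6.20 at 12, 7.62 and 7.36 at 24, and 10.3 and 8.74 at 30 months. Both 30-month libraries were the highest of all 8. The log2 fold change was 0.55 at 30 against 3 months (SE 0.18, adjusted p = 0.410, edgeR) and 0.63 at 30 against 12 months (SE 0.18, adjusted p = 0.708, edgeR), neither past the threshold. Without 3-month replicate 1 the value against 3 months was 0.36. Hist1h1a, a linker histone gene known mainly from dividing cells, had 0.562 and 0.742 CPM at 3 months, 0.312 and 0.234 at 12, 0.364 and 0.351 at 24, and 0.505 and 1.58 at 30 months. Only 30-month replicate 2 lay above the 3-month libraries, and without it the log2 fold change at 30 against 3 months was -0.37, against 0.68 with it. At 30 against 12 months it was 1.94 (SE 0.53, adjusted p = 0.677, edgeR), and 0.88 without 30-month replicate 2.

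Of the H3 genes, Hist1h3e had 6.07 and 10.3 CPM at 3 months, 12.8 and 11.5 at 12, 13.4 and 13.4 at 24, and 15.8 and 13.1 at 30 months. The 3-month libraries were the lowest and did not overlap those of any later age. The log2 fold changes over 3 months were 0.56 at 12 (SE 0.23, adjusted p = 0.898), 0.71 at 24 (SE 0.23, adjusted p = 0.536) and 0.82 at 30 months (SE 0.23, adjusted p = 0.309, all edgeR). The value at 30 months was between 0.49 and 1.26 when single libraries were left out, the lower value without 3-month replicate 1 and the higher without 3-month replicate 2. Hist1h3c, an H3 gene of much lower level, had 0.346 and 0.538 CPM at 3 months, 0.760 and 0.254 at 12, 0.881 and 0.409 at 24, and 0.813 and 2.24 at 30 months. Its log2 fold change at 30 against 3 months, 1.78 (SE 0.64, adjusted p = 0.478, edgeR), was the largest among the 49 members other than Hist1h4m and Hist1h4n whose groups did not overlap. Without 30-month replicate 2 it was 0.87. Hist1h3b, likewise an H3 gene, had 0.286 and 0.752 CPM at 30 months, against 0.130 and 0.223 at 3 months, a log2 difference of 1.55 at 30 against 3 months (SE 0.91, adjusted p = 0.713, edgeR), which was 0.68 without 30-month replicate 2.

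Of the H4 genes, Hist1h4h had 56.5 and 59.8 CPM at 3 months, 86.8 and 71.3 at 12, 77.8 and 43.4 at 24, and 72.7 and 79.9 at 30 months. The 3-month libraries lay below those of 12 and 30 months, and 24-month replicate 2 was the lowest. The log2 fold change at 30 against 3 months was 0.39 (SE 0.25, adjusted p = 0.736, edgeR). Hist1h4d had 29.7 and 36.5 CPM at 3 months, 49.4 and 47.4 at 12, 50.7 and 35.3 at 24, and 50.6 and 50.2 at 30 months, a log2 difference of 0.61 at 30 against 3 months (SE 0.19, adjusted p = 0.354, edgeR). Again only the lower 24-month library came down to the level of the 3-month libraries. Hist1h4c had 39.2 and 54.7 CPM at 3 months, 59.6 and 49.6 at 12, 54.0 and 34.2 at 24, and 52.9 and 48.7 at 30 months, a log2 difference of 0.11 at 30 against 3 months (SE 0.24, adjusted p = 0.942, edgeR), which was -0.11 without 3-month replicate 1.

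Hist1h4i had the lowest p of any member across the ages (adjusted p = 0.556, edgeR) and ran the other way from Hist1h4d. It had 20.03 and 19.7 CPM at 3 months, 20.6 and 27.5 at 12, 17.1 and 14.4 at 24, and 15.7 and 13.5 at 30 months. All 4 libraries of 24 and 30 months lay below all 4 of 3 and 12 months. The log2 fold change was -0.72 at 30 against 12 months (SE 0.18, adjusted p = 0.551) and -0.44 at 30 against 3 months (SE 0.18, adjusted p = 0.532, both edgeR). Hist1h4a, a low-level H4 gene, had 0.864 and 0.927 CPM at 3 months, 1.34 and 0.819 at 12, 1.44 and 0.604 at 24, and 1.91 and 2.09 at 30 months, so that both 30-month libraries were the highest. Its log2 fold change at 30 against 3 months was 1.16 (SE 0.40, adjusted p = 0.446, edgeR), and it stayed between 1.09 and 1.22 when single libraries were left out.

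Of the H2A and H2B genes, Hist1h2bc had 44.9 and 46.1 CPM at 3 months, 45.01 and 49.01 at 12, 43.8 and 55.3 at 24, and 40.4 and 44.5 at 30 months. Its coefficient of variation over the 8 libraries was 9.53%, and only that of Hist1h2be was lower, at 9.46%. The log2 fold change of Hist1h2bc at 30 against 3 months was -0.10 (SE 0.16, adjusted p = 0.919, edgeR). Hist2h2ac, the highest H2A gene, had 4.99 and 5.28 CPM at 3 months, 7.50 and 5.54 at 12, 8.31 and 4.56 at 24, and 7.58 and 9.70 at 30 months. Both 30-month libraries lay above both 3-month libraries, a log2 difference of 0.75 at 30 against 3 months (SE 0.29, adjusted p = 0.507, edgeR). Hist1h2ag and Hist1h2ae, H2A genes of low level, had 0.483 and 0.827 CPM and 0.747 and 1.02 CPM at 30 months, against 0.216 and 0.241 CPM and 0.173 and 0.501 CPM at 3 months. Their log2 fold changes were 1.51 (SE 0.60, adjusted p = 0.528) and 1.36 (SE 0.50, adjusted p = 0.487, both edgeR). That of Hist1h2ae was 0.81 without 3-month replicate 1 and 2.34 without 3-month replicate 2.

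Library by library, 29 of the 51 members had their highest CPM in 30-month replicate 2, where 16.5% of all tested genes did, and 21% of tested genes with a mean between 0.1 and 2 CPM. These were mainly genes of low level, namely 22 of the 27 members below 2 CPM per kilobase and 7 of the 24 above. In 13 of the 27, replicate 2 of 30 months was at least 1.5 times the highest of the other libraries. The median of this ratio over all 27 was 1.48. The 27 members together summed to 17.6 and 18.8 CPM at 3 months, 20.7 and 12.9 at 12, 17.8 and 12.4 at 24, and 15.6 and 32.0 at 30 months. The lowest of these sums, 12.9, 12.4 and 15.6 CPM, were those of the libraries whose kidney genes summed to less than 1 CPM. What the libraries of each kind share was not tested. The 24 higher members summed to 455 and 537, 530 and 561, 537 and 453, and 548 and 539 CPM at the same ages, so that 30-month replicate 2 was within the range of the others there. The median coefficient of variation was 51.9% in the 27 lower members and 21.7% in the 24 higher ones.

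Set against the mean of the 3-month libraries on the log2(CPM + 0.1) scale, 30-month replicate 1 was higher in 25 of 49 members, with a median difference of 0.0 (range -1.33 to 1.06). Replicate 2 was higher in 42 of 49, with a median of 0.67 (range -0.64 to 2.13). By class the median for replicate 2 was 0.43 in H1, 0.78 in H2A, 0.83 in H2B, 0.68 in H3 and 0.58 in H4 genes. For replicate 1 it was 0.17, -0.19, -0.06, -0.14 and 0.19.

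**Figure D4:**
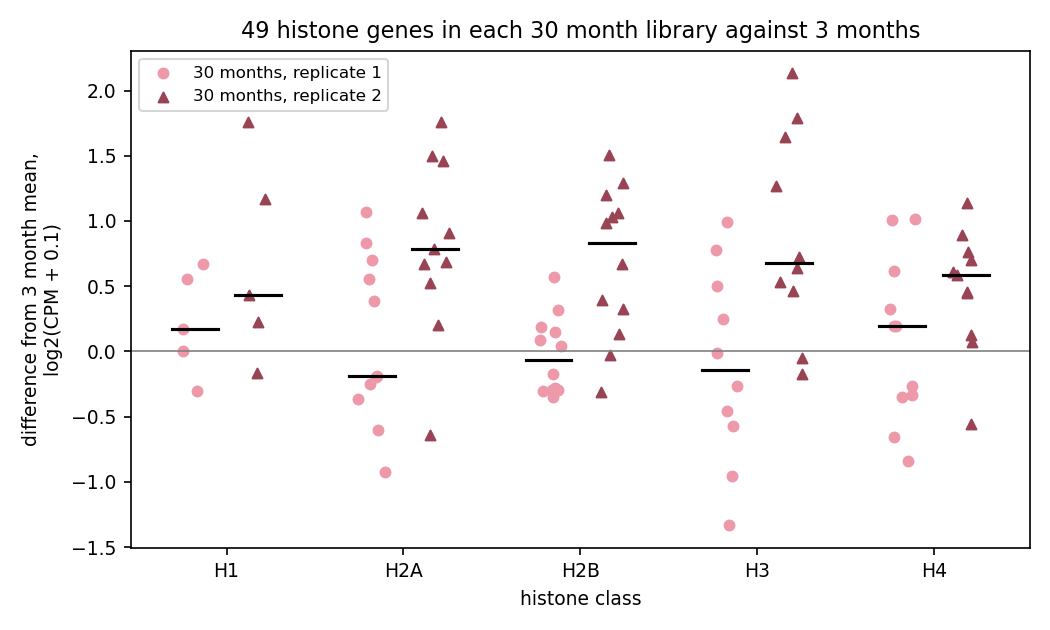
Difference of each 30-month library from the mean of the 3-month libraries for 49 members, in log2(CPM + 0.1), with 1 point for each member and a black line at the median of the class. Replicate 2 lies above 0 in 42 members and replicate 1 in 25.

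Some genes of cell division were highest in the same library and others were lowest there. Mki67, a marker of cycling cells, had 1.49 and 1.28 CPM at 3 months, 1.83 and 0.507 at 12, 2.13 and 1.73 at 24, and 1.93 and 4.30 at 30 months. Top2a, the DNA topoisomerase of dividing cells, had 0.929 and 0.723, 1.07 and 0.215, 0.939 and 0.721, and 0.901 and 2.56 CPM at the same ages. Both had their lowest value in 12-month replicate 2, which was also the lowest library of 12 members, all of them below 2 CPM per kilobase. The share of all tested genes lowest in that library was not counted. Of the 23 tested genes in the list for S phase and division, 9 were highest and 3 lowest in 30-month replicate 2, and 10 were lowest in 12-month replicate 2. The 3 lowest in 30-month replicate 2 were Ccne2, another S phase cyclin, at 3.76 CPM against 4.56 to 9.29 CPM elsewhere, Tk1, a thymidine kinase, at 6.77 against 7.03 to 9.71 CPM, and Ube2c, a ubiquitin-conjugating enzyme of mitosis, at 225 against 234 to 320 CPM. The median ratio of 30-month replicate 2 to the median of the others was 1.11 over the list, and edgeR called 0 at 30 against 3 months, with 18 positive and a median log2 fold change of 0.14. The log2 fold change of Ccna2, the cyclin of S phase, was 0.91 (SE 0.36, adjusted p = 0.523, edgeR) and that of Mki67 was 1.18 (SE 0.54, adjusted p = 0.614, edgeR).

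Macrophage genes also stood high in 30-month replicate 2. All 7 listed (Adgre1, Csf1r, Cd68, Mrc1, C1qa, C1qb and Mpeg1) were highest there, and they summed to 113 and 123 CPM at 3 months, 130 and 81.7 at 12, 119 and 73.4 at 24, and 120 and 203 at 30 months. Of 7 lymphocyte genes, Ptprc, which all white blood cells express, was highest in 30-month replicate 2, at 17.3 CPM. The other 6, which mark T and B cells, summed to 1.86 CPM there, within the range of 1.25 to 2.81 CPM of the other libraries. Satellite cell genes summed to between 18.4 and 33.0 CPM, endothelial genes to between 150 and 212 CPM and red cell genes to between 88.4 and 322 CPM, and none of these 3 sums was highest in that library. The part that any of these cells had in the histone values was not tested.

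**Figure D5:**
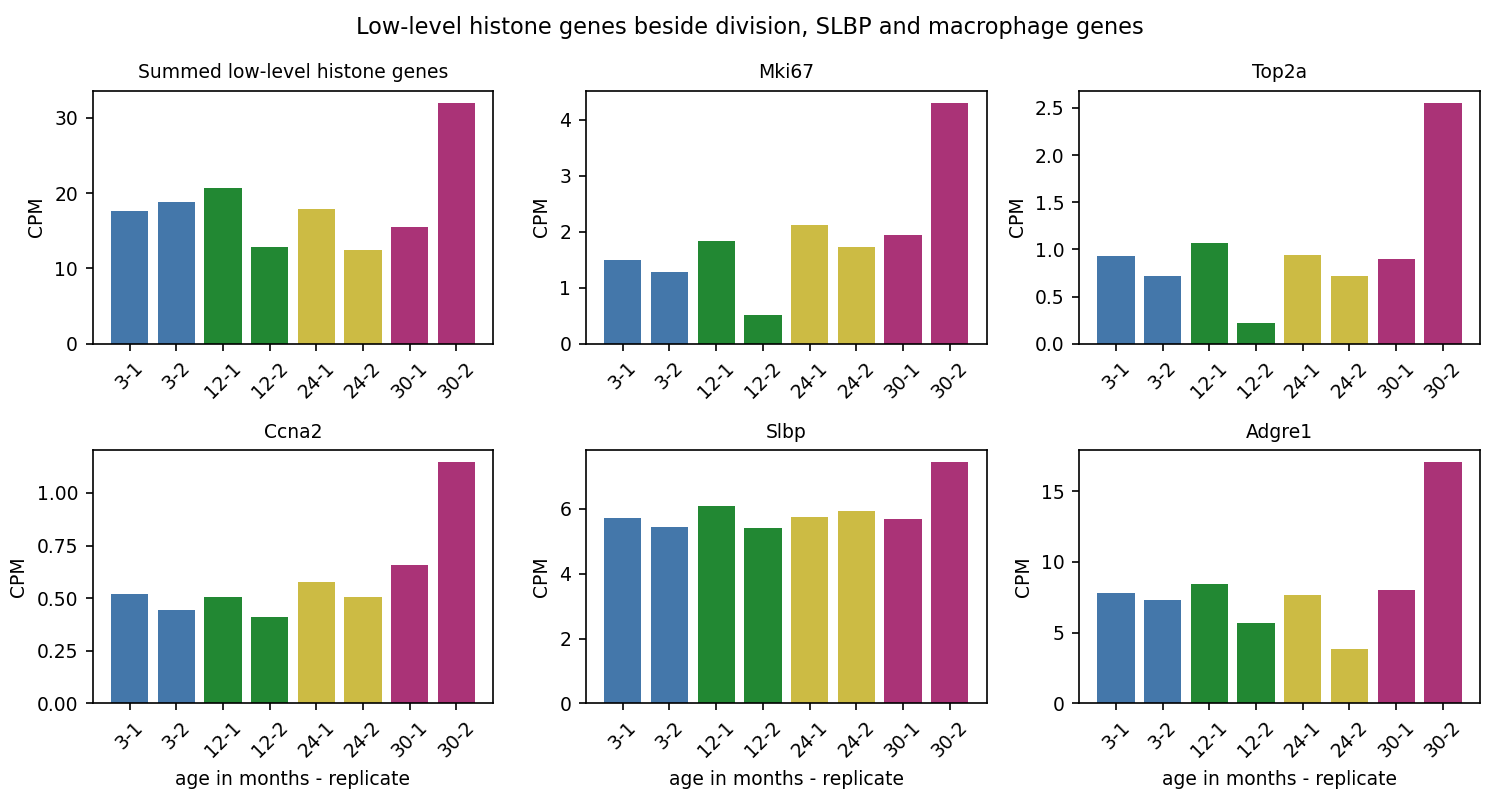
Bars give CPM in each library, labelled by age in months and replicate, for the sum of the 27 lower members and for Mki67, Top2a, Ccna2, Slbp and the macrophage gene Adgre1. All 6 panels have their highest bar in 30-month replicate 2, where the 27 members sum to 32.0 CPM. The genes shown are a selection from their lists. In that library 9 of 23 division genes were highest and 3 lowest, and 3 of 24 histone mRNA processing genes were highest and 3 lowest. All 7 macrophage genes were highest there.

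The lowest library of 18 members, 10 of them among the 24 higher ones, was 24-month replicate 2. These were 9 of the 13 H4 genes, 4 of the 11 H2A genes, 4 of the 12 H2B genes and 1 of the 10 H3 genes. The share of all tested genes that were lowest in this library was not counted, so the 18 cannot be set against it. It was the highest library of 20.1% of all tested genes. The H4 genes summed to 145 CPM there and to 177 to 258 CPM in the other 7 libraries, and the H2A genes to 12.2 CPM there and 13.4 to 22.01 CPM elsewhere, while H1 and H2B genes, at 203 and 78.5 CPM, were within or above the range of the others. Hist1h4f, an H4 gene chosen after its values were seen, had 2.51 CPM there, against 3.33 to 7.28 CPM elsewhere. Of 10 tested RNAs that carry no poly(A) tail, 5 were lowest and 2 highest in this library. Rmrp, the RNA of the RNase MRP complex, had 1885 CPM in this library and 3120 to 4968 CPM in the others. Scarna2 and Scarna6, guide RNAs of Cajal bodies, had 74.1 and 4.40 CPM there, against 169 to 249 CPM and 24.5 to 47.1 CPM elsewhere. Rny1 and Rny3, the Y RNAs, had 137 and 209.6 CPM there, against 56.8 to 118 CPM and 82.2 to 187.5 CPM elsewhere. The whole list summed to 17777 CPM in this library and to between 14597 and 22882 CPM in the others. The part of RNA selection or quality in the H4 values was not tested.

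Members with a short annotated end also varied more. The median coefficient of variation over the 8 libraries was 20.7% in the 19 members with 100 or more bases past the stem-loop, 60.2% in the 16 with fewer and 48.4% in the 16 with no annotated stem-loop. The number highest in 30-month replicate 2 was 7 of 19, 11 of 16 and 11 of 16. Level differed between these sets as well, with 13 of 19, 6 of 16 and 5 of 16 at 2 CPM per kilobase or more, so the length of the end and the level cannot be told apart here. The sets follow the M21 transcripts, and the counted stretch did not always hold the whole of a long end.

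Genes that make, process or handle histones gave 0 calls at 30 against 3 months in any list (edgeR, Benjamini-Hochberg over 19571 genes). In the list for histone mRNA processing 14 of 24 tested genes were positive, with a median log2 fold change of 0.00. Slbp, which encodes the stem-loop binding protein, had 7.44 CPM in 30-month replicate 2 and 5.402 to 6.08 CPM in the other 7 libraries. The list as a whole did not stand high there. Of its 24 genes 3 were highest and 3 lowest in that library, and 10 were highest in 24-month replicate 2. The median ratio of 30-month replicate 2 to the median of the others was 1.0. Lsm11, of the small nuclear particle that cuts histone transcripts, gave a log2 difference of -0.35 (SE 0.20, adjusted p = 0.706, edgeR). Among 19 histone chaperones 15 were positive, with a median of 0.11. Chaf1b, a subunit of the chromatin assembly factor that works at the replication fork, had 0.395 and 0.583 CPM at 30 months, against 0.0432 and 0.204 CPM at 3 months, a log2 difference of 1.92 at 30 against 3 months (SE 0.62, adjusted p = 0.385, edgeR). One of its 3-month values was under the floor of 3 counts.

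Of 11 tested replication-independent histone genes 6 were positive, with a median of 0.11, against 0.55 in the cluster members. The median of the members was 0.00 without 30-month replicate 2, and no such value was taken for the 11 genes. The 2 medians therefore do not show a difference between the kinds of histone gene. H3f3b, one of the genes for the replacement histone H3.3, which is laid down outside S phase, had 24.1 and 27.6 CPM at 3 months, 26.7 and 26.2 at 12, 37.5 and 47.7 at 24, and 36.8 and 42.1 at 30 months. All 4 libraries of 24 and 30 months lay above all 4 of 3 and 12 months, and the log2 fold change at 30 against 3 months was 0.61 (SE 0.16, adjusted p = 0.269, edgeR). Its highest library was 24-month replicate 2. H3f3a, another gene for H3.3 and of higher level, did not follow it. It had 78.7 and 75.1 CPM at 3 months, 77.8 and 72.8 at 12, 75.5 and 94.8 at 24, and 71.4 and 75.6 at 30 months. Its log2 fold change at 30 against 3 months was -0.07 (SE 0.16, adjusted p = 0.950, edgeR).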

How the data were processed

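The deposited values were whole-number counts per Ensembl gene, not normalized, for 8 libraries. Per the labels' protocols, total RNA was extracted with Trizol and libraries were made with a NEBNext Ultra kit. The submitters' processing notes list Trimmomatic 0.36, STAR 2.5.2b, featureCounts and Subread 1.5.2 as tools and GRCm38 and mm10 as builds, with no roles. The sources used here do not state the annotation release, strand setting, RNA selection or treatment of multi-mapped reads.

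Symbols and gene types came from GENCODE M21 (49056 of 49315 identifiers matched). Gene coordinates and counted lengths were those deposited with the counts, and 34 of the 51 members had the same start and end in M21. Transcript sequences were those of M21. Counts were analysed with edgeR 4.0.16 in R 4.3.3: filterByExpr left 19571 genes, including all 51 members, TMM scaled the libraries, and a robust quasi-likelihood model held the 4 ages over 8 libraries with 4 residual degrees of freedom. A gene was called at a Benjamini-Hochberg adjusted p below 0.05 over all genes tested. SE was derived from the fold change and the F statistic (estimate over root F). CPM are scaled by TMM, and CPM per kilobase divide them by the counted length. Alternatives were DESeq2 1.42.0, other scalings, no filter, a replicate block, the library set as a term (kidney genes summing to more than 1 CPM or not), and leaving out each library. The fit was tested on simulated counts.

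The members and lists were chosen with earlier results of these data known. Named members were the 8 highest by CPM per kilobase, the highest of each class, Hist1h4m and Hist1h4n, the 4 with the lowest p across the ages, and the 5 with the largest change at 30 against 3 months without overlap. From each list up to 3 genes with the lowest p at 30 against 3 months could be named. Slbp, Top2a, Tk1, Ube2c, Ptprc, H3f3a, Hist1h4f, Rmrp, Rny1, Rny3, Scarna2, Scarna6, Gm28438 and mt-Nd3 were named after their values were seen.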

Additional observations from a re-analysis of the deposited data

How the results depend on the processing

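No member was called under RLE or library-total scaling, DESeq2 or any fit that left out 1 library (0 in each). Without the low-count filter, 1 member was called at 30 against 3 months (Hist1h3e, adjusted p = 0.00704, edgeR), 2 at 30 against 12 months (Hist1h1a and Hist1h4i) and 4 across the ages (Hist1h1a, Hist1h1b, Hist1h3e and Hist1h4i); that fit called 378 of all genes at 30 against 3 months, against 29 with the filter. With the library set as a term, 7 members were called at 30 against 3 months (Hist1h2ab, Hist1h2ag, Hist2h2ac, Hist1h2bb, Hist1h3c, Hist1h4a and Hist2h4) and 1 across the ages (Hist1h3c). The fit with this term called 416 of all genes at 30 against 3 months, against 29 without it. Both 3-month libraries belong to the set with kidney genes, so that contrast leans on 30-month replicate 2; the cause was not tested.

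Without the highest member of each class, the log2 ratio of summed levels at 30 over 3 months was 0.43 for H1, 0.20 for H2A, 0.14 for H2B, 0.24 for H3 and 0.17 for H4. Leaving out 1 library gave -0.11 to 0.18 for H1, 0.23 to 0.58 for H2A, -0.12 to 0.10 for H2B, 0.24 to 0.75 for H3 and 0.13 to 0.36 for H4. Of single genes at 30 against 3 months, the log2 fold change changed sign for Hist1h4c (-0.11 to 0.38), Hist1h1c (-0.20 to 0.055) and Hist1h1a (-0.37 to 1.27). Over 27 results and 378 alternatives, 363 kept their direction and side of the threshold.

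The replicate block called 0 members in every comparison. The numbers do not pair the samples: deviations of same-numbered libraries correlated between -0.357 and 0.262 over the 6 pairs of ages. Low counts limit the members below 2 CPM per kilobase most.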
